A study of Mus musculus with 12 samples.

Results

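Immunoglobulin gene expression was examined in bulk RNA from mouse breast tumors grown from 4T1 cells, a mammary carcinoma line. The genes were taken by symbol, as heavy (Igh), kappa (Igk) and lambda (Igl) constant and variable genes, and kept when they reached 1 TPM (transcript per 1000000) in at least 1 of the 12 libraries. TPM was the deposited FPKM divided by its library's sum and multiplied by 1000000. Of 361 rows with such symbols, 183 passed, out of 55401 genes in the table. The genes were thus chosen by their highest TPM in these same libraries, so their levels are given as a description. Just inside the limit were Igkv4-58, with a highest level of 1.01 TPM, and Ighv1-61, with 1.02 TPM. Just outside it were Ighv1-21 at 0.976 TPM and Ighv12-2 at 0.947 TPM.

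All mice were Balb/c and carried 4T1 tumors in the orthotopic (mammary) site. The 4 groups of 3 tumors received the control isotype (IgG1-Fc, called control IgG), the recombinant IL10-Fc protein (IL-10-Fc), the CSF1R antibody (aCSF1R) or the IL10/CSF1R fusion protein (BF10). According to the labels, dosing began at a tumor size of 100 mm3 and ran to 6 doses, while the series description gives a smaller number, so the number of doses is uncertain. Tumors are named by group and by the replicate number in their titles. Tumors of 1 transplanted line stand for each group, the labels give neither the age nor the sex of the mice, and the tissue was sequenced whole. Csn2 and Wap, milk protein genes that mark secretory mammary tissue, did not exceed 0.177 and 0.115 TPM. Csn3, also a milk protein gene of the list, was 2.39 to 20.9 TPM and highest in control IgG 7, and Krt14, a basal epithelial keratin, lay between 6.76 and 86.4 TPM.

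An antibody is made of heavy and light chains, each with a variable region that binds antigen and a constant region that sets the class. A B cell joins 1 heavy variable (V) gene and 1 light V gene to its constant genes, so that each clone of cells shows 1 V gene per chain. Naive B cells use Ighm and Ighd, activated cells can switch to an IgG, IgE or IgA gene, and plasma cells, the antibody secreting end stage, hold most of the immunoglobulin mRNA. In whole tumor RNA, fewer B lineage cells and less immunoglobulin RNA per cell cannot be told apart.

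The 183 genes comprised 12 constant genes and 171 V genes. In the mouse build GRCm38 (GENCODE M21) they lay in 3 loci. The 102 heavy chain genes spanned chr12:113254830-116000461, the 75 kappa genes chr6:67555497-70726966 and the 6 lambda genes chr16:19061618-19260859. Among the V genes, 94 were heavy, 74 kappa and 3 lambda, and 14 of the heavy V genes are pseudogenes in that annotation. A total of 46 genes reached 1 TPM in a single library, whereas 7 did so in all 12. Only 34 genes were above 0 in every library.

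The V genes that led in individual tumors are shown by the last 150 bases of their GENCODE M21 transcripts, which run toward the joint with the J segment. Capitals mark the last match to TATTNNTGN, read here as codons for a tyrosine, a further residue and the conserved cysteine before the third hypervariable loop. The motif, searched on the coding strand, was found in 147 of 171 V genes (86.0%). It was found in the last 300 bases of 10.4% of 130671 transcripts of other genes. The first 4 genes led in aCSF1R replicate 4.
Ighv9-3, chr12:114140692-114140841, minus strand: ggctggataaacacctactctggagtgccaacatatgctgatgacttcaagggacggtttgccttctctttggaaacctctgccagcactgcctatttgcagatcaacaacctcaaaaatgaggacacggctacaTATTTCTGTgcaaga
Ighv1-84, chr12:115980702-115980851, minus strand: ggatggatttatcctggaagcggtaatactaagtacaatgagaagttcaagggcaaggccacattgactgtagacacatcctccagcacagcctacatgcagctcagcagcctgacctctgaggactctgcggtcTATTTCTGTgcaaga
Igkv4-50, chr6:69700767-69700916, minus strand: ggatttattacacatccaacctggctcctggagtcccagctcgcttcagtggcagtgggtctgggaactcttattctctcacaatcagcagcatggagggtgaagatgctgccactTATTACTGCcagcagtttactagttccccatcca
Igkv6-23, chr6:70260409-70260558, minus strand: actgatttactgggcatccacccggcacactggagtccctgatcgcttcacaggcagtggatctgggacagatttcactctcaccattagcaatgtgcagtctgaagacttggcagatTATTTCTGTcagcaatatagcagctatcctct

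The next pair were the kappa and lambda V genes with the highest mean level over the 12 tumors, and both peaked in control IgG 7.
Igkv3-4, chr6:70672228-70672377, plus strand: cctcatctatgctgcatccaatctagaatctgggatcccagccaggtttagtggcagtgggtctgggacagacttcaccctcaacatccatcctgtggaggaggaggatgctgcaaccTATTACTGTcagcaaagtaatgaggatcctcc
Iglv1, chr16:19085017-19085166, minus strand: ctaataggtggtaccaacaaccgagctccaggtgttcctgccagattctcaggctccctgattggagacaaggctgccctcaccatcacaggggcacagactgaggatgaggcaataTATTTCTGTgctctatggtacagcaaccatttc

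Ighv14-1 and the pseudogene Ighv15-1 are shown because, among the 34 genes above 0 in every tumor, their highest and lowest levels were the closest to each other. Ighv15-1 held no match to the motif in this stretch, so it has no capitals.
Ighv14-1, chr12:113931953-113932102, minus strand: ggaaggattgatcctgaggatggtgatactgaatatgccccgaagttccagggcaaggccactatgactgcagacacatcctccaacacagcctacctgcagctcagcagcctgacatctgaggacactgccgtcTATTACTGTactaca
Ighv15-1, chr12:114158040-114158189, minus strand: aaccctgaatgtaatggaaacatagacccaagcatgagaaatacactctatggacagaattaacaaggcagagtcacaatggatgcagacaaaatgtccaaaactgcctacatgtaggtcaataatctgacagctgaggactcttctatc

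Many V genes are near copies of each other, and a short read can fit more than 1 of them. Each V gene was cut into every window of 75 bases, the read length stated by the authors, and compared with the transcripts of all other genes. In 50 of 171 V genes every window was unique to the gene, and in 4 at least 50% of the windows occurred in another gene. A total of 83 V genes were at least 95% identical to another of the 171. Ighv1-52 and Ighv1-61 were 98.6% identical and shared 47.7% and 46.2% of their windows, so their levels are uncertain. Igkv10-96 and Igkv10-94, a pair of the same family, were 95.4% identical and had 20% and 23.8% of their windows in another gene, so their levels are also partly uncertain. They differ at 14 of the last 150 bases (in capitals below).
Igkv10-96, chr6:68631963-68632112, minus strand: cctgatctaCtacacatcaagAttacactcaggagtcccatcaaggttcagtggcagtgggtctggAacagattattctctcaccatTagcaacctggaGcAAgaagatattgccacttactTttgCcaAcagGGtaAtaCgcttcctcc
Igkv10-94, chr6:68704508-68704657, minus strand: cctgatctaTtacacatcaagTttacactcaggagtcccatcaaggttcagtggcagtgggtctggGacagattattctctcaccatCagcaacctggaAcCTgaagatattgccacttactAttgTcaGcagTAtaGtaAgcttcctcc

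Summed over the 183 genes, immunoglobulin RNA varied widely between tumors of the same treatment. In the control IgG group the summed level was 199.6 TPM in replicate 4, 98.8 TPM in replicate 5 and 2943 TPM in replicate 7. The IL-10-Fc tumors had 336 (replicate 2), 432 (4) and 108 TPM (7), and the aCSF1R tumors 419 (4), 200.4 (6) and 105 TPM (8). The BF10 tumors had 866 (3), 214 (6) and 297 TPM (7). Control IgG 7 stood 3.40-fold above the next tumor, BF10 3, which itself stood 2.00-fold above the third, whereas the lowest tumor of all was also a control. The ranges of all 4 groups overlapped. As a share of all transcripts, the immunoglobulin genes made up 0.294% in control IgG 7 and between 0.00988% and 0.0866% in the other 11 tumors. The mean of the log2 sums was 8.60 ± 2.58 in control IgG, 7.97 ± 1.06 with IL-10-Fc, 7.69 ± 1.00 with aCSF1R and 8.57 ± 1.05 in BF10 (SD, n = 3).

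**Figure D1:**
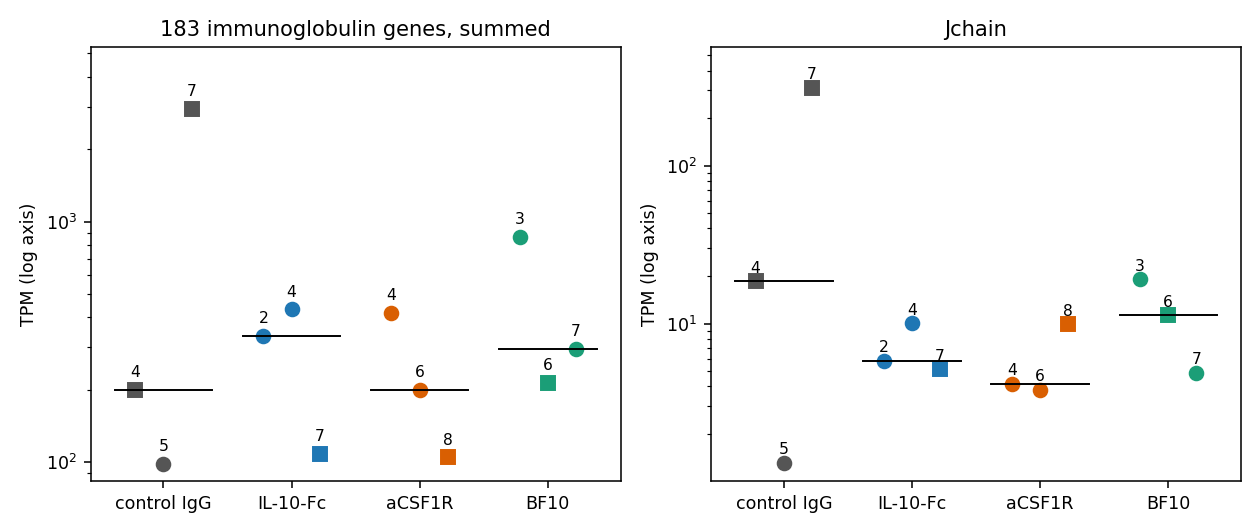
Summed level of the 183 immunoglobulin genes (left) and level of Jchain (right) in TPM on log axes, 1 point per tumor labelled with its replicate number, for the 4 groups. Bars are medians, circles are libraries with a lower FPKM sum and squares those with a higher one. Control IgG 7 lies at 2943 TPM, above every other tumor.

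The difference between the group means of the log2 sums turned on control IgG 7. BF10 minus control was -0.03, IL-10-Fc minus control -0.63 and aCSF1R minus control -0.91 with all 3 controls. Without control IgG 7 the same differences were 1.44, 0.84 and 0.56. All 3 thus changed sign when 1 tumor was left out. Between the treated groups, BF10 minus IL-10-Fc was 0.60, BF10 minus aCSF1R 0.88 and IL-10-Fc minus aCSF1R 0.28. Each was below the SD between tumors within these 3 groups (1.00 to 1.06). The pooled SD of 1.58 over all 4 groups also holds the wide spread of the controls.

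Control IgG 7 also stood apart in genes outside the rule. It held the highest level of 137 of the 183 genes (74.9%), compared with 617 of the 17152 genes that reached 1 TPM anywhere (3.60%). That share is partly built in, because 38 genes reached 1 TPM in this tumor alone. Of the 15 mature B cell markers 13 were highest there, and their summed level was 105 TPM against 3.74 to 68.6 TPM in the other 11 tumors. Ms4a1, which encodes CD20, was 15.8 TPM against 0.115 to 1.49 TPM in the other 11 tumors. Cd79a and Cd79b, the signalling chains of the B cell receptor, were 11.8 and 29.5 TPM and did not pass 2.06 and 2.44 TPM elsewhere. Several genes of the lymph node list were also high in this tumor. Glycam1, a mucin counted here as a lymph node gene, was 249 TPM against at most 3.60 TPM, and Ccl21a, a chemokine of lymphoid stroma, was 190.1 TPM against at most 75.4 TPM. Csn3, the milk protein gene given above, was also highest in this tumor, and Glycam1 was not traced to lymph node or mammary tissue. The summed level of the 8 lymph node stroma and follicular dendritic cell genes was 462 TPM there and 19.1 to 162 TPM in the other 11, and 5 of the 8 were highest there. Glycam1 and Ccl21a made up most of that sum in control IgG 7. Cr2 and Fcer2a are in both this list and the mature B cell markers. Pdpn, a glycoprotein of lymphoid stroma and other cells, was 9.59 TPM there, lower than in the other 11 tumors (12.2 to 73.3 TPM). Glycam1 and Ccl21a, named after their levels were seen, were above 0 in all 12 tumors. The part of lymph node, follicle or mammary tissue in the immunoglobulin level was not tested.

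Plasma cell markers did not move as 1 group. Jchain, which joins IgA and IgM into polymers, was 312 TPM in control IgG 7, 18.5 in control IgG 4, 1.32 in control IgG 5, 5.83, 10.1 and 5.12 TPM in IL-10-Fc 2, 4 and 7, 4.16, 3.82 and 9.94 TPM in aCSF1R 4, 6 and 8, and 19.1, 11.3 and 4.89 TPM in BF10 3, 6 and 7. Its highest and lowest tumors were those of the immunoglobulin sum. Mzb1, an endoplasmic reticulum chaperone of antibody assembly, was 18.4 TPM in control IgG 7 and at most 1.76 TPM elsewhere, and Pou2af1, a B cell transcription coactivator, was 14.4 and at most 1.69 TPM. Tnfrsf17, the plasma cell survival receptor BCMA, stayed at or below 1.00 TPM. Xbp1 (40.5 to 127 TPM) and Sdc1 (119 to 221 TPM), which epithelial tumor cells also express, were lower in control IgG 7 (55.9 and 136 TPM) than in 10 other tumors for each gene.

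Among light chain constant genes, Igkc (kappa) was the most abundant member in all 12 tumors. Its level was 42.5, 17.2 and 849 TPM in control IgG 4, 5 and 7, and 90.9, 131 and 25.1 TPM in IL-10-Fc 2, 4 and 7. It was 111, 54.5 and 23.6 TPM in aCSF1R 4, 6 and 8, and 256, 40.3 and 78.7 TPM in BF10 3, 6 and 7. The order of the tumors was close to that of the summed level, and the groups overlapped. Iglc1 (lambda) followed another order. It was 13.9, 0 and 115 TPM in the controls, 6.31, 1.77 and 3.01 TPM with IL-10-Fc, 1.58, 0.771 and 3.65 TPM with aCSF1R, and 4.55, 32.9 and 1.58 TPM in BF10. BF10 6 and control IgG 4, with summed immunoglobulin levels of 214 and 199.6 TPM, held more Iglc1 than every tumor but control IgG 7. Iglv1, the V gene of the same lambda cluster, was also high in those 3 tumors, at 21.1, 9.75 and 106 TPM, and was at most 4.51 TPM elsewhere. Iglv2 and Iglv3 did not pass 1.70 and 1.48 TPM outside control IgG 7, where they were 31.1 and 9.98 TPM. Iglc2 and Iglc3, which are 95.3% identical, were 112 and 71.1 TPM in control IgG 7 and at most 4.65 and 3.94 TPM elsewhere.

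The lambda share of light chain constant RNA followed a property of the libraries. Their FPKM sums fell into 7 lower and 5 higher values. Control IgG had 2 higher-sum and 1 lower-sum libraries, and each treated group 1 higher-sum and 2 lower-sum libraries, so the sets were not balanced against control. Lambda made up 3.42% to 9.27% in the 7 lower-sum libraries and 16.6% to 49.0% in the 5 higher-sum libraries, with no overlap. The higher-sum libraries were control IgG 4 (34.4%) and 7 (26.0%), IL-10-Fc 7 (16.6%), aCSF1R 8 (22.5%) and BF10 6 (49.0%). Within the lower-sum set, control IgG 5 had 9.27%, IL-10-Fc 2 and 4 had 8.55% and 3.65%, aCSF1R 4 and 6 had 6.39% and 5.33%, and BF10 3 and 7 had 3.42% and 3.87%. Group means (23.2% ± 12.8 in control IgG, 9.60% ± 6.55 with IL-10-Fc, 11.4% ± 9.60 with aCSF1R and 18.8% ± 26.2 in BF10, SD, n = 3) thus mixed libraries of both sets, and the part of the library set in the lambda share was not tested.

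**Figure D2:**
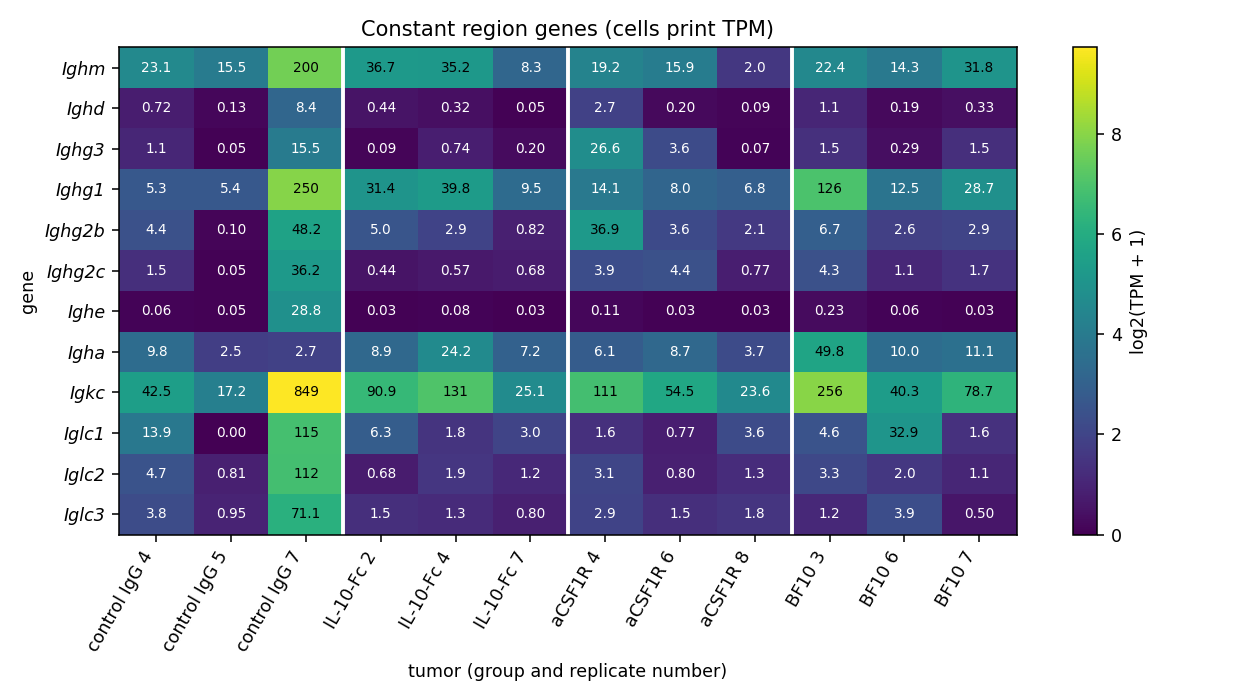
TPM of the 12 constant genes (rows) in the 12 tumors (columns, white lines between groups), with color on the log2(TPM + 1) scale. Control IgG 7 is highest for 10 of the 12 genes, while Igha peaks in BF10 3 (49.8 TPM) and Ighg3 in aCSF1R 4 (26.6 TPM).

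Heavy chain classes differed in make-up from tumor to tumor. Ighm, the class of naive and early responding cells, was 23.1, 15.5 and 199.8 TPM in control IgG 4, 5 and 7, and 36.7, 35.2 and 8.33 TPM in IL-10-Fc 2, 4 and 7. It was 19.2, 15.9 and 1.99 TPM in aCSF1R 4, 6 and 8, and 22.4, 14.3 and 31.8 TPM in BF10 3, 6 and 7. The lowest level was thus in aCSF1R 8 and all groups overlapped. As a share of heavy chain constant RNA, Ighm ranged from 10.6% in BF10 3 to 65.4% in control IgG 5. Ighd, expressed with Ighm on naive cells, was at most 8.36 TPM (control IgG 7) and above 1 TPM elsewhere only in aCSF1R 4 (2.68 TPM) and BF10 3 (1.08 TPM).

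Ighg1 was the highest of the IgG genes in 11 tumors, the exception being aCSF1R 4, where Ighg2b and Ighg3 were higher. Control IgG 4, 5 and 7 had 5.35, 5.38 and 250.4 TPM, IL-10-Fc 2, 4 and 7 had 31.4, 39.8 and 9.45 TPM, aCSF1R 4, 6 and 8 had 14.1, 8.04 and 6.80 TPM, and BF10 3, 6 and 7 had 126, 12.5 and 28.7 TPM. Control IgG 7 and BF10 3 were thus the highest, and the other 10 tumors lay between 5.35 and 39.8 TPM with overlap of all groups. The ratio of Ighg1 to Ighm was 5.60 in BF10 3 and 3.43 in aCSF1R 8, and between 0.231 and 1.25 in the other 10 tumors.

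Other IgG genes were high in aCSF1R 4. Ighg2b was 36.9 TPM there and Ighg3, typical of responses without T cell help, 26.6 TPM, compared with 48.2 and 15.5 TPM in control IgG 7 and at most 6.74 and 3.62 TPM in the remaining 10 tumors. Ighg2b and Ighg3 made up 33.6% and 24.3% of its heavy chain constant RNA, against at most 13.4% and 8.15% in any other tumor. Ighg2c was 36.2 TPM in control IgG 7 and at most 4.40 TPM elsewhere. The reference genome is of the C57BL/6 strain, which has Ighg2c where Balb/c mice carry Ighg2a, so this level is uncertain, as are those of the V genes.

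IgE and IgA RNA behaved differently from the rest. Ighe was 28.8 TPM in control IgG 7 and between 0.0255 and 0.235 TPM in the other 11 tumors, so that control IgG 7 stood 123-fold above the next. Igha, the mucosal class, was instead low in control IgG 7. It was 9.84, 2.46 and 2.72 TPM in control IgG 4, 5 and 7, 8.86, 24.2 and 7.17 TPM in IL-10-Fc 2, 4 and 7, 6.11, 8.74 and 3.71 TPM in aCSF1R 4, 6 and 8, and 49.8, 9.99 and 11.1 TPM in BF10 3, 6 and 7. Control IgG 7, the tumor with the most immunoglobulin RNA, had the second lowest Igha level, 0.460% of its heavy chain constant RNA against 5.58% to 26.8% in the other 11. Among those 11, Igha was highest in BF10 3 and lowest in control IgG 5, the tumors with their highest and lowest immunoglobulin sums. All 3 BF10 tumors lay above all 3 controls. Pigr, the epithelial transporter that carries IgA across mucosa, was at most 0.0813 TPM.

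**Figure D3:**
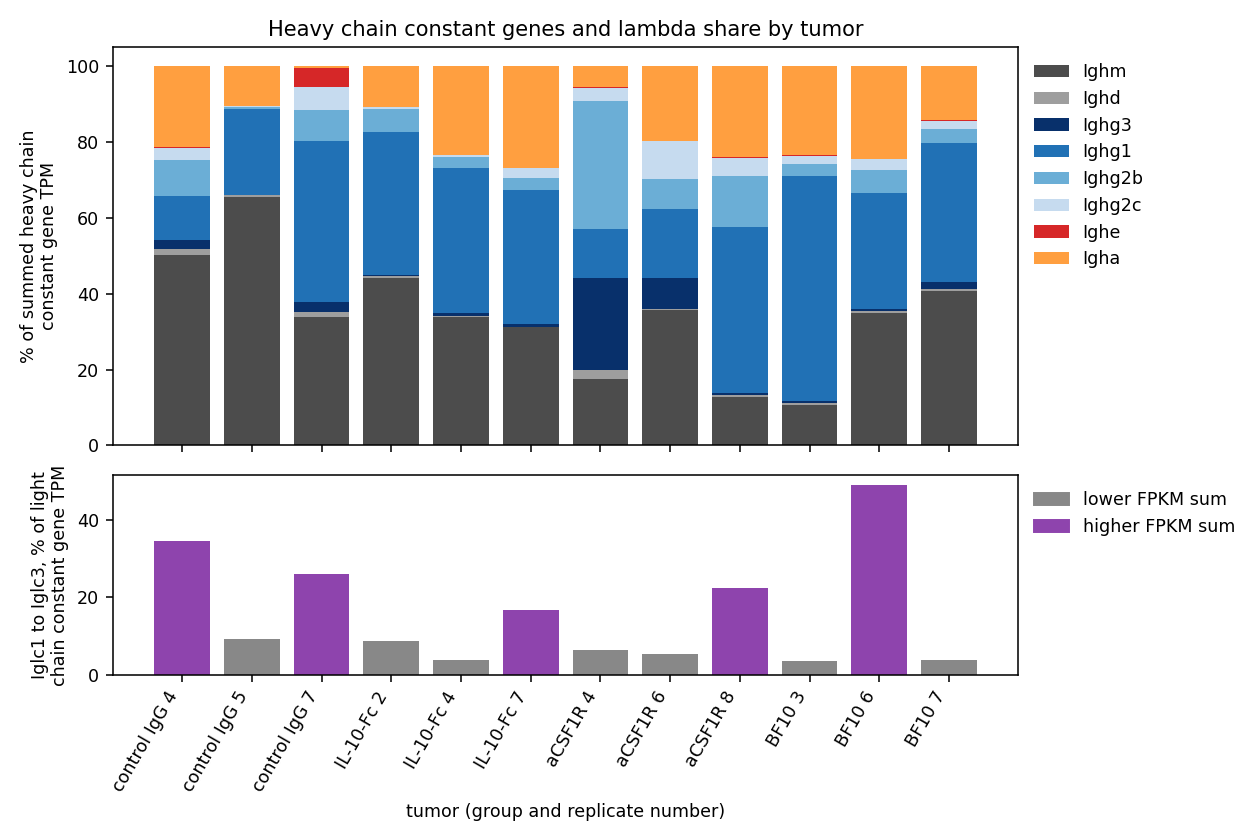
Percent of summed heavy chain constant TPM taken by each of 8 genes (top, stacked) and percent of light chain constant TPM that was lambda (bottom) in the 12 tumors. Ighg2b and Ighg3 together stand out in aCSF1R 4 and Ighe in control IgG 7, and the 5 higher-sum libraries (purple) have the 5 highest lambda shares.

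V gene use differed in breadth between tumors. Breadth is given as the effective number of V genes, the exponential of the Shannon entropy of their shares, which falls when few genes dominate. Only genes that reached 1 TPM in some library were counted. Of the 183 genes, 38 did so in control IgG 7 alone and 4 in BF10 3 alone, so the breadth of these tumors is partly built in. For heavy V genes it was 32.5, 13.6 and 66.5 in control IgG 4, 5 and 7, 40.0, 51.8 and 32.8 in IL-10-Fc 2, 4 and 7, 17.8, 34.1 and 23.1 in aCSF1R 4, 6 and 8, and 61.5, 35.1 and 34.3 in BF10 3, 6 and 7. For kappa V genes the lowest values were again in control IgG 5 (13.0) and aCSF1R 4 (17.1), and the highest in BF10 3 (47.1). Depth moved with this range. Over the 116 V genes with 1 annotated transcript, an estimated 216 reads stood behind control IgG 5, 1023 behind aCSF1R 4, 1820 behind BF10 3 and 7622 behind control IgG 7. IL-10-Fc 4, with 942 reads, close to aCSF1R 4, had effective numbers of 51.8 and 41.9.

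In aCSF1R 4 the 3 leading V genes took 54.7% of heavy and 54.4% of kappa V RNA. Control IgG 5, with 55.0% and 52.2%, was the nearest, and the other 10 tumors did not pass 36.0% and 37.9%. Its leading heavy V genes were the pseudogene Ighv15-1 (11.4 TPM), Ighv14-1 (6.91 TPM) and Ighv14-4 (4.38 TPM), at lower levels than the leaders of aCSF1R 4. Ighv9-3 was 29.9 TPM in aCSF1R 4, 23.8 TPM in control IgG 7, 10.4 TPM in BF10 3 and 0.830 to 4.30 TPM in the other 9 tumors. Ighv1-84 was 25.7 TPM in aCSF1R 4 and at most 0.576 TPM in every other tumor, including control IgG 7, and it was 0 in 7 of them. Igkv4-50 was 19.5 TPM in aCSF1R 4 and at most 2.91 TPM elsewhere. Igkv6-23 was 18.4 TPM there, 9.65 TPM in control IgG 7 and at most 3.47 TPM in the remaining tumors. These 4 genes, whose sequences are given above, belong to 4 V families. Of their windows, 4.69% of those of Ighv9-3, 28.2% of Ighv1-84, 0% of Igkv4-50 and 14.6% of Igkv6-23 occurred in another gene. Ighv1-84 and Igkv6-23 were singled out after their levels were seen. The same tumor held the Ighg2b and Ighg3 RNA described above, but bulk data do not show which V gene was joined to which constant gene.

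Leading V genes were in part shared between tumors. Among heavy V genes, the pseudogene Ighv15-1 led in control IgG 4 and 5, IL-10-Fc 7 and aCSF1R 6 and 8. Ighv14-1 led in IL-10-Fc 2 and 4, and Ighv9-3 in control IgG 7 as in aCSF1R 4. Igkv3-4 was 74.3 TPM in control IgG 7 and at most 3.53 TPM elsewhere, and Igkv8-27 was 47.6 and at most 1.46 TPM. Igkv10-96 was 22.9 TPM in control IgG 7, 18.3 TPM in BF10 3 and 1.17 to 5.31 TPM in the other 10, and it was the only kappa V gene at 1 TPM or more in all 12. Ighv2-2 led the heavy V genes in BF10 3 (12.1 TPM) and BF10 7 (7.83 TPM), and Ighv1-4 in BF10 6 (4.23 TPM). Among light V genes Igkv12-89 led in control IgG 5 (5.24 TPM), Igkv8-24 in IL-10-Fc 2 (9.27 TPM) and aCSF1R 6 (4.12 TPM), Igkv10-94 in IL-10-Fc 4 (6.31 TPM), and Igkv5-39 in aCSF1R 8 (4.93 TPM) and BF10 7 (6.51 TPM). Each of these light V genes thus led in at most a pair of tumors. Iglv1 led the light V genes in control IgG 4 and 7, IL-10-Fc 7 and BF10 6.

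The heavy V genes Ighv15-1 and Ighv14-1 varied little between tumors. Ighv15-1, a pseudogene, was 7.13, 11.4 and 6.56 TPM in control IgG 4, 5 and 7, 5.12, 3.89 and 4.24 TPM in IL-10-Fc 2, 4 and 7, 4.21, 7.92 and 5.52 TPM in aCSF1R 4, 6 and 8, and 2.78, 3.40 and 6.43 TPM in BF10 3, 6 and 7. It was highest in the tumor with the lowest immunoglobulin sum, and its highest level was 4.09-fold its lowest, compared with 49.2-fold for Igkc. Ighv14-1 ranged from 2.31 TPM in IL-10-Fc 7 to 13.9 TPM in control IgG 7 (6.00-fold). At the family level, Ighv15 varied 3.64-fold and Ighv14 4.86-fold over the 12 tumors, against 46.3-fold for Ighv1, the largest heavy family with 51 members, and 49.4-fold for Igkv4. No window of Ighv15-1 occurred in another gene's transcript, and 6.86% of those of Ighv14-1 did.

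**Figure D4:**
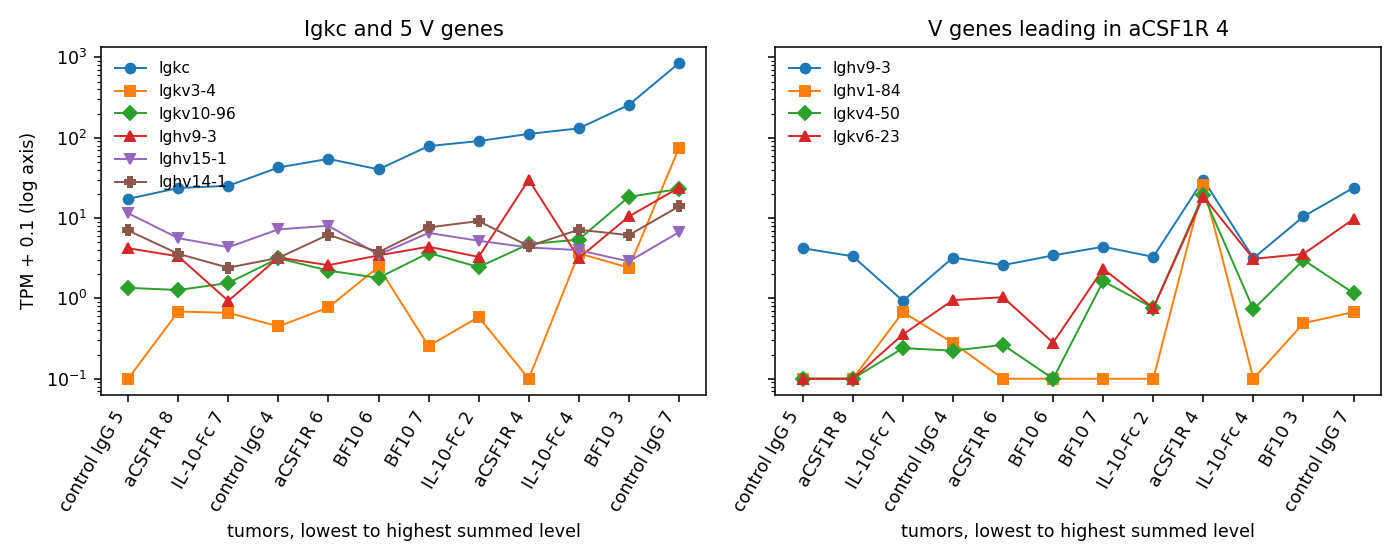
TPM + 0.1 on a log axis for Igkc and 5 V genes (left) and for the 4 V genes that led in aCSF1R 4 (right), with the 12 tumors ordered by summed immunoglobulin level. Ighv15-1 stays between 2.78 and 11.4 TPM while Igkc rises from 17.2 to 849 TPM, and Ighv1-84 is above 1 TPM in aCSF1R 4 alone.

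For the comparison of treatments, 102 of the 183 genes entered the test, those with at least 1 TPM in at least 3 libraries, among 15504 genes in all. They were tested with limma on log2(TPM + 1) over all 12 tumors, with adjustment over all genes tested, and called at an adjusted p below 0.05 and a 1.5-fold difference. No immunoglobulin gene was called in any of the 6 comparisons or in the F test across the 4 groups. The spread was large: the median SE of a difference was 0.72 on the log2 scale for the 102 genes and 0.43 for all genes tested. The F test called 0.522% of all genes. It had 0 of 102 immunoglobulin genes at an unadjusted p below 0.05, where 3.00% of all genes had one, and the lowest was that of Igha (0.0761, adjusted 0.991).

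For BF10 against control IgG, limma called 0 immunoglobulin genes and 0% of all genes in either direction. At an unadjusted p below 0.05, 1 was higher (0.987% of all genes) and 1 lower (0.522%), and the same pair did not overlap between groups (2.36% of all genes higher and 1.17% lower). Igha was higher, with each BF10 tumor at or above 9.99 TPM and each control at or below 9.84 TPM, with a log2 difference of 1.87 (SE 0.69, limma adjusted p = 0.788). Over the alternatives, leave-one-out fits included, its log2 difference lay between 1.07 and 2.84. Ighv15-1 was lower by 0.87 (SE 0.35, limma adjusted p = 0.788), with 4.20 ± 1.95 against 8.37 ± 2.64 TPM. Neither passed the adjusted threshold. Ighg1 (log2 0.77, SE 1.31) and Ighm (-0.92, SE 1.00) had differences smaller than their errors, and that of Igkc was 0.11. These values turned on control IgG 7, without which they were 2.54 for Ighg1, 0.19 for Ighm and 1.75 for Igkc.

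For IL-10-Fc against control IgG, limma called 0 immunoglobulin genes (0% of all genes higher and 0.00645% lower). At an unadjusted p below 0.05 there were 0 higher (1.03% of all genes) and 2 lower (0.413%), and 0 were higher (4.75%) and 3 lower (1.78%) without overlap. Igkv12-89 had the smallest p, with a log2 difference of -1.32 (SE 0.57, limma adjusted p = 0.738), and it was 0 in IL-10-Fc 2 and 4. Its difference was -0.69 without control IgG 5 and -1.72 without control IgG 7. The other lower gene by unadjusted p was Ighv1-9 (-1.51), and Ighv15-1 (-0.76) and Ighv7-3 (-0.55) were the others without overlap. Ighv1-9 and Ighv7-3 are named after their values were seen. Ighv2-5 had the smallest p among the higher genes (log2 0.86, SE 0.43, limma adjusted p = 0.738). Igha differed by 1.29 (SE 0.69) with overlapping groups.

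For aCSF1R against control IgG, limma called 0 immunoglobulin genes, where it called 0% of all genes as higher and 0.568% as lower. At an unadjusted p below 0.05 there were 0 higher (0.903%) and 1 lower (2.56%), and 0 higher (1.61%) and 3 lower (3.68%) did not overlap. Igkv4-55 was the lower gene (log2 -1.49, SE 0.68, limma adjusted p = 0.893), and without control IgG 7 its difference was -0.52. The 3 genes without overlap were Igkv16-104 (-1.30), Igkv3-5 (-1.10) and Ighv7-3 (-0.47), of which Igkv3-5 and Ighv7-3 are named after their values were seen. Igkv4-50 led the other direction at 1.12 (SE 0.98, limma adjusted p = 0.893), which rested on aCSF1R 4, without which it was -0.29. Ighm differed by -2.10 (SE 1.00, limma adjusted p = 0.893), and by -0.99 without control IgG 7.

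The share of genes below control also turned on control IgG 7. With all 3 controls, 66 of the 102 tested genes were lower under BF10, 82 under IL-10-Fc and 91 under aCSF1R (64.7%, 80.4% and 89.2%), against 22.5%, 20.3% and 26.4% of all genes tested. Without control IgG 7, 7, 21 and 33 were lower (6.86%, 20.6% and 32.4%), against 29.5%, 24.8% and 35.1% of all genes. The median log2 difference of the 102 genes went from -0.18, -0.32 and -0.63 to 0.67, 0.49 and 0.21. Over all genes the median was 0.32, 0.35 and 0.24 with the 3 controls and 0.18, 0.22 and 0.10 without control IgG 7. The rise under BF10 also rested on BF10 3. Without both control IgG 7 and BF10 3, 29 of the 102 genes were lower under BF10 (28.4%, against 39.1% of all genes). The median difference was then 0.29 for the 102 genes and 0.06 for all genes. With libraries scaled by the median of ratios, which brought the median of all genes to between 0.00 and 0.03, 88, 98 and 98 genes were lower with the 3 controls and 16, 31 and 37 without control IgG 7. Of all genes, 48.0%, 49.7% and 46.3% were lower with the 3 controls under this scaling, and 49.3%, 50.4% and 45.6% without control IgG 7. The 3 comparisons share their controls.

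**Figure D5:**
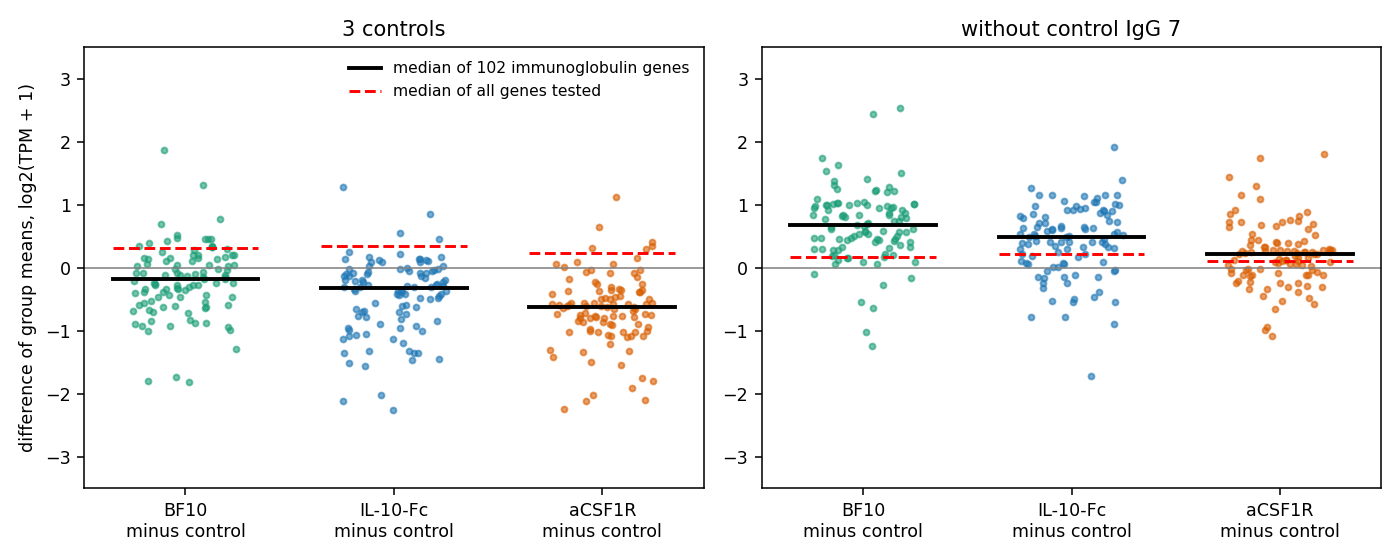
Difference of group means on the log2(TPM + 1) scale for the 102 tested immunoglobulin genes (points) in each treated group minus control, with all 3 controls (left) and without control IgG 7 (right). Black bars are medians of these genes and red dashed bars medians of all genes tested. The black bars lie below 0 on the left (-0.18, -0.32 and -0.63) and above 0 on the right (0.67, 0.49 and 0.21).

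Between the treated groups, limma also called 0 immunoglobulin genes. In BF10 against IL-10-Fc, where 0% of all genes were called, 0 genes had an unadjusted p below 0.05 (0.161% of all genes higher and 0.110% lower), and 5 were higher (0.619%) and 0 lower (1.51%) without overlap. Those 5 were Igkv5-39, Igkv6-14, Ighv9-3, Ighg2c and Igkv12-89, named for this count after their values were seen. By log2 difference, 28 of the 102 genes were lower (64.3% of all genes). Igkv2-137 had the smallest p among the higher genes (log2 0.77, SE 0.36, limma adjusted p = 1) and Igkv16-104 among the lower (-0.93, SE 0.73, limma adjusted p = 1). Without BF10 3, 41 of the 102 genes were higher in BF10, compared with 74 with it. In that setting 59.8% of the 102 genes and 73.3% of all genes were lower.

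In BF10 against aCSF1R, 0.735% of all genes were called higher and 0% lower. Of the immunoglobulin genes 1 was higher at an unadjusted p below 0.05 (3.70%) and 0 were lower (0.561%), and 10 were higher (4.33%) and 0 lower (1.58%) without overlap. Ighv2-2 was 12.1, 1.42 and 7.83 TPM in BF10 3, 6 and 7 and 0.163, 0 and 0.250 TPM in aCSF1R 4, 6 and 8. Its groups did not overlap (log2 2.53, SE 0.86, limma adjusted p = 0.614), and 39.6% of its windows occurred in another gene, its closest being Ighv2-4 at 97.7% identity. Igha, another of the 10, differed by 1.46 (SE 0.69, limma adjusted p = 1). Ighv10-1 had the smallest p among the lower genes (-0.75, SE 0.52, limma adjusted p = 1). By log2 difference, 20 of the 102 genes were lower (41.7% of all genes). Without BF10 3, 58 of the 102 genes were higher, compared with 82 with it. In that setting 43.1% of the 102 genes and 55.1% of all genes were lower.

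In IL-10-Fc against aCSF1R, 0.542% of all genes were called higher and 0% lower. At an unadjusted p below 0.05 there were 0 immunoglobulin genes (3.17% of all genes higher and 0.387% lower), and 9 were higher (5.90%) and 2 lower (1.60%) without overlap. The lower pair was Ighg2c (-1.21) and, named after its value was seen, Igkv3-7 (-0.42). Ighv2-5 had the smallest p among the higher genes (log2 0.88, SE 0.43, limma adjusted p = 1), and Ighv10-1 among the lower (-0.90, SE 0.52, limma adjusted p = 1). Ighg3 differed by -1.96 (SE 1.14, limma adjusted p = 1). By log2 difference, 36 of the 102 genes were lower (33.4% of all genes).

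Genes that act with immunoglobulins were read from 10 lists of 97 genes. Across the 6 comparisons, 1 of these genes was called, once. Tnfrsf13b, which encodes TACI, a receptor for the B cell survival factors BAFF and APRIL, was 8.96, 3.42 and 5.43 TPM in BF10 and 1.24, 1.12 and 0.477 TPM in aCSF1R. It was higher in BF10 by 1.78 (SE 0.33, limma adjusted p = 0.0371), and its levels in control IgG (3.86 to 5.87 TPM) and IL-10-Fc (3.95 to 5.01 TPM) also lay above all 3 aCSF1R tumors. Its limma adjusted p was 0.106 with no filter on low genes and 0.0241 to 0.146 when 1 library was left out in turn, and it passed the threshold only without BF10 6.

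In the B cell attraction and survival list, 10 of 14 genes were tested and Tnfrsf13b was the gene called. Tnfsf13b, which encodes BAFF, was 7.00, 4.68 and 4.77 TPM in control IgG, 6.72, 9.01 and 4.89 TPM with IL-10-Fc, 3.17, 5.82 and 2.71 TPM with aCSF1R, and 7.99, 4.27 and 14.3 TPM in BF10. Cxcl13, the chemokine that draws B cells into follicles, ranged from 3.75 TPM in control IgG 5 to 38.8 TPM in control IgG 7, and was also high in control IgG 4 (32.7 TPM) and IL-10-Fc 4 (33.5 TPM). None of the 6 tested mature B cell genes, the 12 plasma cell genes, the 6 germinal center and class switching genes, the 13 B cell receptor signalling genes, the 2 antibody transport genes, the 11 T cell genes, the 4 lymph node genes or the 4 epithelial genes was called by limma in any comparison. The 13 signalling genes, most of which myeloid cells also express, had a median log2 difference of -0.63 for aCSF1R, 0.24 for BF10 and 0.24 for IL-10-Fc, each against control IgG, where the medians of all genes were 0.24, 0.32 and 0.35. No gene of the recombination list (Rag1, Rag2, Dntt and the surrogate light chain genes) entered the test. Fcgrt, the receptor that recycles IgG, was 101, 62.6 and 131 TPM in control IgG, 60.4, 95.1 and 93.5 TPM with IL-10-Fc, 50.8, 47.7 and 52.0 TPM with aCSF1R and 76.8, 93.2 and 53.9 TPM in BF10. Its aCSF1R values lay below all others, with a log2 difference of -0.89 from control (SE 0.31, limma adjusted p = 0.779). The summed level of the 11 T cell genes was 108 TPM in control IgG 7 and 40.2 to 115 TPM in the other 11 tumors. Of these 11 genes 3 were highest in control IgG 7, among them the T cell receptor constant gene Trbc2 (34.8 TPM against at most 22.3 TPM), while the receptor subunit Cd3e was 1.77 TPM there and 0.434 to 6.93 TPM over all tumors.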

How the data were processed

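RNA from 12 tumors was sequenced as stranded polyadenylated libraries. The authors deposited FPKM per gene (2 decimals), and the submitters' processing notes name STAR 2.7.5a, RSEM 1.3.3 and DESeq2 1.28.0 with mm10 (GRCm38). The 4 deposited comparison tables hold the authors' own fold changes and p-values and were not used. All 12 columns carried a sample, and 0 were left over. FPKM were divided by the library sum and multiplied by 1000000. Low values step in whole reads only in part (66.9% to 71.8% of values within 0.15 of a whole number, against 30% by chance), which gave an estimate of 30900000 to 36200000 mapped reads per library, so no count test was run and the read numbers are estimates.

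Differences were fitted with limma 3.58.1 in R 4.3.3 (log2(TPM + 1), 1 mean per group, moderated variance with trend), with Benjamini-Hochberg adjustment over 15504 genes. The procedure was also run on simulated data, with the spread set to a fraction of the fitted one. That run therefore does not show the power to find changes in these tumors. p-values measure the spread between tumors. The genes, lists and tests were chosen with earlier results of these data known. Named genes are all constant genes, the 3 V genes highest on average per locus, the V gene highest in each tumor, per comparison the gene with the smallest p in each direction, and defining genes of the lists. Tumors were not paired by replicate number in the main fit. Correlations of same-numbered tumors ran from -0.66 to 0.42. They were positive for pairs within a library set and negative for pairs across the sets, so they cannot show whether the numbers pair tumors. All 183 genes matched GENCODE M21, whose positions and sequences are given. The 75-base read length is the one stated by the authors. Alternatives covered the pseudocount, scaling, filter, library set, replicate block, library weights and each library left out, and counts of direction were recomputed under settings chosen after seeing the data. Some reads of near-identical V genes may have been split by RSEM. Some genes of the lists are not reported here.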

Additional observations from a re-analysis of the deposited data

How the results depend on the processing

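The count of 0 called immunoglobulin genes held in each of the 6 comparisons and the F test for every single library left out (0 to 0), with the replicate block, with the library set as a term and under the scaling, pseudocount and filter alternatives. limma sample quality weights changed it to 10 (BF10 against control IgG), 26 (IL-10-Fc against control IgG), 29 (aCSF1R against control IgG), 1 (BF10 against IL-10-Fc), 3 (BF10 against aCSF1R), 27 (IL-10-Fc against aCSF1R) and 49 (F test), while all genes called rose to 8967, 9274, 9898, 37, 465, 1970 and 12813. These weights ran from 0.0736 (aCSF1R 8) to 61.7 (IL-10-Fc 4), and the fit that gave them did not converge. Within the lower-sum libraries 1 gene was called in BF10 against aCSF1R, Ighv2-2 (log2 3.32, limma adjusted p = 0.0224). In that set the summed level differed by 2.36, 1.95 and 1.55 (BF10, IL-10-Fc and aCSF1R minus control), with 1 control left. With single libraries left out, the summed differences ranged from -1.01 to 1.44 (BF10 minus control), -1.61 to 0.84 (IL-10-Fc minus control), -1.89 to 0.56 (aCSF1R minus control), -0.00 to 1.02 (BF10 minus IL-10-Fc), 0.29 to 1.39 (BF10 minus aCSF1R) and -0.21 to 0.88 (IL-10-Fc minus aCSF1R). Igkv4-50 in aCSF1R against control IgG reversed to -0.29 without aCSF1R 4 and was 1.88 without aCSF1R 8. With the replicate block, a pairing that could not be checked, the Tnfrsf13b difference fell from 1.78 to 1.21 and its call was lost (limma adjusted p = 0.773). The counts of genes below control, recomputed after the data were seen, were 6, 11 and 15 within the lower-sum libraries. These are 5.88%, 10.8% and 14.7% (BF10, IL-10-Fc and aCSF1R), where 57.2%, 61.5% and 46.7% of all genes were lower. Depth limits V genes: in control IgG 5 an estimated 216 reads covered the 116 with 1 annotated transcript. The causes of these changes were not tested.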
